A study of Mus musculus with 12 samples.

Results

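The epidermal differentiation complex is a cluster of genes that encode building blocks of the outermost skin layer, and 43 of its genes were followed here among the 23235 gene symbols of the files. They were chosen by name: every Lce gene, Sprr1, Sprr3 and Sprr4 genes, the numbered S100a genes other than S100a8, S100a9 and S100a7a, and Flg2, Hrnr, Rptn, Tchh, Tchhl1, Crnn, Lor, Ivl, Lelp1 and Kprp. The neighbouring Sprr2 genes, 10 in number, were left aside and serve only for comparison, and Flg is not analysed here. The members are 18 Lce genes (13 Lce1, 4 Lce3 and Lce6a), 4 Sprr genes, 6 genes of the S100-fused type, 11 S100a genes, and Lor, Ivl, Kprp and Lelp1. All lie on chromosome 3 between positions 90314956 and 93368567 of the mm9 build, a span of 3.054 Mb, and no member overlaps another. S100a genes stand at both ends, with Lor, the Sprr genes, Ivl, the Lce genes and the S100-fused genes between them.

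The 12 libraries of polyA RNA, 3 in each of 4 groups, came from mice of the FVB/NJ strain. Epidermis was taken 24 h after 400 µL of topical 20% camphor white oil (CWO, an essential oil) or of its vehicle acetone, from mice shaved 1 week earlier; the labels give no age for these mice and speak of 5 treated mice. The epidermis was lifted off with ammonium thiocyanate, and the 3 RNA samples per treatment with the highest integrity were sequenced. The papillomas, benign growths that can become malignant, arose on mice shaved at 6 to 7 weeks of age, in the resting stage of the hair cycle. DMBA, a carcinogen, was given at 400 nmol a single time, and TPA, a tumour promoter, at 10 nmol repeatedly, and tumour burden was high by 15 weeks. These mice then received 20% CWO or acetone for 6 weeks, and each library holds 4 pre-malignant tumours pooled from 1 of 3 mice per group. Both papilloma groups therefore carry DMBA and TPA exposure, and both epidermis groups carry neither. Tissue, carcinogen exposure, age and length of treatment cannot be told apart in any comparison of papilloma with epidermis. The labels do not say whether each epidermis sample is a single mouse, so p-values measure the spread between these samples.

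As keratinocytes leave the basal layer they build the cornified envelope, a protein shell beneath the plasma membrane that is crosslinked by transglutaminases. Involucrin (Ivl) is laid down early, loricrin (Lor) forms most of the finished shell in normal skin, and small proline-rich (Sprr) and late cornified envelope (Lce) proteins are further components. The S100-fused proteins, such as filaggrin-2, hornerin, repetin, trichohyalin and cornulin, join an S100 calcium-binding domain to long repeats, and the S100a genes encode small calcium-binding proteins of many cell types. Sprr1 and Lce3 genes are known for their induction in irritated, wounded or hyperplastic skin, and the Lce1 genes for their use in undisturbed epidermis.

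The promoter windows of 7 members are printed as examples from the Lce, Sprr, S100-fused and loricrin groups, picked with their values known, among genes that differed between the tissues. Sequences are from RefSeq on GRCm38.p6 and hold the 250 bases before the annotated start, 5′ to 3′ on the gene's own strand. Capitals mark TATAA or ATAAAA within bases 50 to 11 before the start, and the AP-1 motif TGANTCA anywhere in the window. Lce3c and Lce3f were far higher in papilloma than in epidermis, and their windows lie at chr3:92944236-92944485, plus strand, and chr3:92991967-92992216, plus strand.
Lce3c: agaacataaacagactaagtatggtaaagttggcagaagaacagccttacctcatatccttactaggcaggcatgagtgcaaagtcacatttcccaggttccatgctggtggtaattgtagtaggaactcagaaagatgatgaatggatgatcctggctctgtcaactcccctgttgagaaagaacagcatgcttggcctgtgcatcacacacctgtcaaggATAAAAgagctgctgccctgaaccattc
Lce3f: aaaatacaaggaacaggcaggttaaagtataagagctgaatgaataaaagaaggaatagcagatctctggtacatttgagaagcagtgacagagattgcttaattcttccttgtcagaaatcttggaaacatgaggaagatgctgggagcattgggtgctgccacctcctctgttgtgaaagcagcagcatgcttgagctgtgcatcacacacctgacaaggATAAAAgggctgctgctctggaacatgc
Over the last 80 bases these windows were identical at 62 positions in place, and they shared an unbroken run of 18 bases. Rptn (chr3:93393449-93393698, plus strand), Sprr1b (chr3:92438780-92439029, minus strand) and Lce1g (chr3:92752339-92752588, minus strand) were also higher in papilloma.
Rptn: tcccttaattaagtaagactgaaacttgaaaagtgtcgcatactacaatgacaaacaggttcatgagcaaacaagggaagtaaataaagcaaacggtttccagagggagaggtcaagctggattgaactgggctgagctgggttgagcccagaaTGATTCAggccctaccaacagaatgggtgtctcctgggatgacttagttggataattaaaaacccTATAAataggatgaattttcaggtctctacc
Sprr1b: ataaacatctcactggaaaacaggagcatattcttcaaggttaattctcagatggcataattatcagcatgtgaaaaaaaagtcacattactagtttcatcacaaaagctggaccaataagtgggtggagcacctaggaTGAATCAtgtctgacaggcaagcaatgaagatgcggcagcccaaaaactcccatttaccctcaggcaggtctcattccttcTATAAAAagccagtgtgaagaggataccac
Lce1g: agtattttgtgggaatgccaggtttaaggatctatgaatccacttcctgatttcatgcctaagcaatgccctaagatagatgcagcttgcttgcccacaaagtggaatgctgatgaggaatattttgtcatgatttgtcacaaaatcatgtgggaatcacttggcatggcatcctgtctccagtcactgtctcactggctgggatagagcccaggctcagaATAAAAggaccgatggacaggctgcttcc
Lor (chr3:92083143-92083392, minus strand) and Lce1m (chr3:93019062-93019311, minus strand) were the members with the highest mean levels in vehicle epidermis and were lower in papilloma.
Lor: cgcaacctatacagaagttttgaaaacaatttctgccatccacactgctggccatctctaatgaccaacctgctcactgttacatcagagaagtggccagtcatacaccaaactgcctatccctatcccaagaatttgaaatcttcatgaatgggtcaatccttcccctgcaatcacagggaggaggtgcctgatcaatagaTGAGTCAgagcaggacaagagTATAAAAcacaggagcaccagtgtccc
Lce1m: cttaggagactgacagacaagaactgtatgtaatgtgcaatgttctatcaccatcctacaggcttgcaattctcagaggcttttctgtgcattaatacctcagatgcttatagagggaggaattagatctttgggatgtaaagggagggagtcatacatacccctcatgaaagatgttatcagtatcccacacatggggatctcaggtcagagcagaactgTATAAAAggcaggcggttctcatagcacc
Windows were found for 38 of the 43 members. ATAAAA, searched on the gene's strand near the start, stood in 22 of these 38 members (57.9%) and in 2.81% of 27025 genes with the same window, a gene with several starts counting where any of its windows held the letters. It stood in 11 of 12 Lce1 genes and in 4 of 4 Lce3 genes. TATAA, searched in the same place and overlapping ATAAAA wherever the letters run TATAAAA, stood in 34.2% of members and 5.38% of all genes. TGANTCA reads the same on both strands. It stood in 26.3% of members and 7.82% of all genes, in 2 of 4 Sprr genes, in 4 of 6 S100-fused genes and in 0 of the 16 windows of Lce1 and Lce3 genes. AACCNGTT (Grainyhead-like, both strands) stood in 5.26% of members and 2.0% of all genes, GGGTGG (KLF, both strands) in 31.6% and 30.6%, and TTGCNNAA (C/EBP, both strands) in 7.89% and 10.8%. ATAAAA was added to the search after the windows had been read. These matches describe letters in the windows and were not tested for function.

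Keratinocyte markers were high in both tissues: Krt5 was at 2580 to 4138 FPKM in epidermis and 3074 to 4095 FPKM in papilloma, FPKM being fragment counts scaled to transcript length and to the mapped fragments of the library. Krt10, a keratin of the suprabasal layers, was at 9174 to 11631 FPKM in epidermis and 2061 to 8028 FPKM in papilloma. Krt1, a keratin of the same layers, went the other way, with overlap. It was at 2051 to 2853 FPKM in epidermis and 2248 to 6114 FPKM in papilloma. Other cell types were present too. The summed FPKM of 16 skeletal muscle markers was 12514, 19785 and 4038 in vehicle epidermis, 3349.9 to 4317 in CWO epidermis and 11.1 to 449.9 in papilloma. The 9 fibroblast and matrix markers summed to 82.2 to 150.6 FPKM in epidermis and 688 to 1053 FPKM in papilloma. Basal keratinocyte markers summed to 7833 to 11421 FPKM in epidermis and 19052 to 21636 FPKM in papilloma, but between vehicle tissues 3 of these 7 markers passed as higher and 2 as lower, with a median log2 difference of 0.11. Krt14 carried most of the sum, at 2605 to 5279 FPKM in epidermis and 15369 to 17073 FPKM in papilloma. Between vehicle tissues 16 of 16 muscle and 10 of 10 sebaceous gland markers passed as lower in papilloma, 8 of 9 fibroblast and 4 of 5 endothelial markers as higher. Of 9 leukocyte markers 4 were higher and 5 lower, and of 13 hair follicle markers 5 were higher, 1 was lower and 7 did not pass. The part of these cell types in the differences between the tissues was not tested. These are bulk samples, so fewer cells of a type and less RNA per cell cannot be told apart. Between 11.1 and 24.6 M fragments per library were recovered from the files, and all member values carried the status OK.

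The members took up a similar share of the summed FPKM of all genes within a tissue, 2.99 to 3.79% in epidermis and 4.75 to 6.08% in papilloma, but were made up differently. In vehicle epidermis Lor ranked first and Lce1m second by mean FPKM, and Lor alone was 29.7 to 35.4% of the members' summed FPKM. In both papilloma groups Sprr1a ranked first and Sprr1b second, and together they were 38.3 to 44.5% of the sum, against 1.24 to 1.68% in vehicle epidermis. Summed Lce FPKM was 9215 to 11016 in vehicle epidermis and 8899 to 13005 in vehicle papilloma, so the family total overlapped between tissues while its composition did not. Lce3 genes were 0.0825 to 0.125% of the Lce sum in vehicle epidermis, 0.213 to 0.653% in CWO epidermis and 55.6 to 65.0% in papilloma. Lce1m was 40.9 to 42.4% of the Lce1 sum in vehicle epidermis, 31.5 to 38.4% in CWO epidermis and 1.33 to 2.75% in papilloma.

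**Figure D1:**
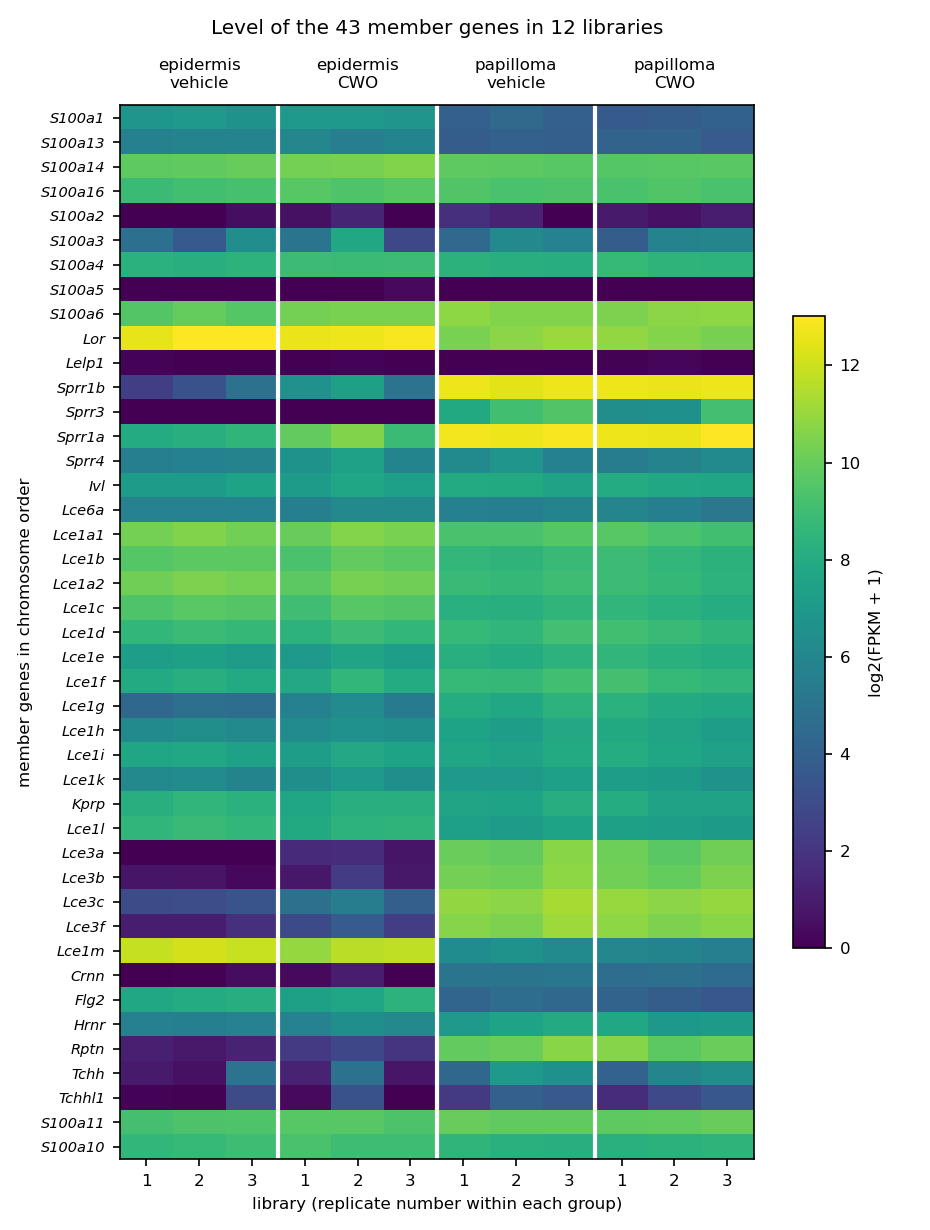
Colour gives log2(FPKM + 1) of each of the 43 members (rows, in chromosome order) in each of the 12 libraries (columns, grouped). Lor and Lce1m are bright in the epidermis libraries, and Sprr1a, Sprr1b, the Lce3 genes and Rptn in the papilloma libraries.

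**Figure D2:**
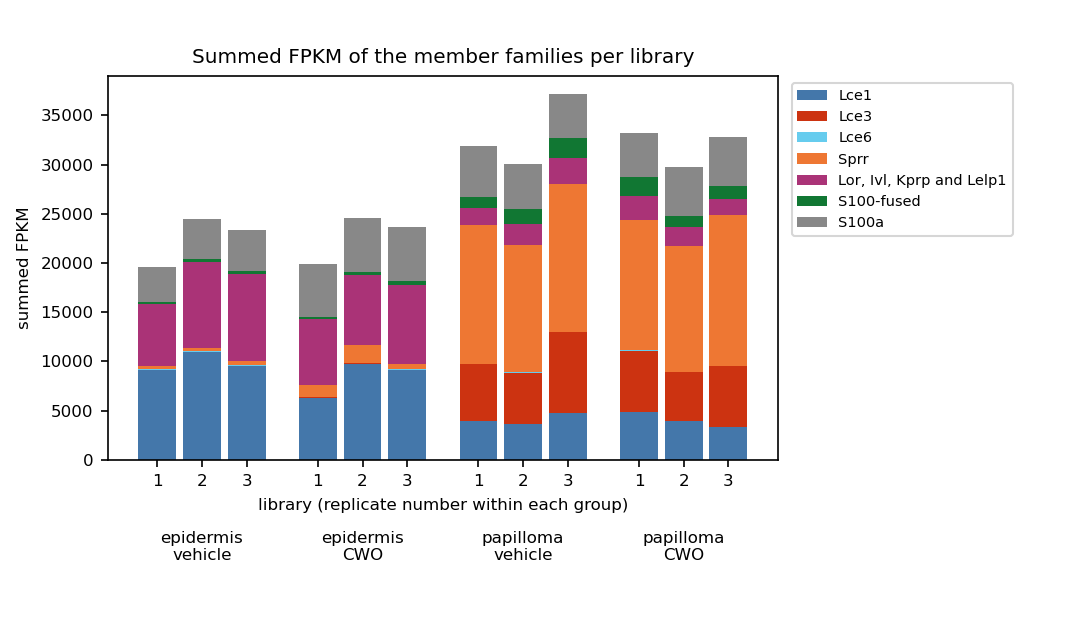
Bars stack the summed FPKM of each member family for each library. Lce1 genes and Lor with its group fill most of the epidermis bars, and Sprr and Lce3 genes most of the papilloma bars.

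The first comparison asked how the complex differed between papilloma and epidermis, both given vehicle. Of 40 members tested, 33 passed an adjusted p under 0.05, 21 higher and 12 lower in papilloma. Across all 12795 genes tested 70.2% passed (31.8% higher and 38.3% lower, and 72.5% at an unadjusted p under 0.05), so passing alone set the members little apart, and 1.77% of all genes passed with a log2 difference of at least 3 upward and 1.81% downward. Among members 11 did so upward (Lce3a, Lce3b, Lce3c, Lce3f, Rptn, Sprr1a, Sprr1b, Sprr3, Crnn, Tchh and Lce1g) and 2 downward (Lce1m and Flg2). Sprr3, Lce3a, Lce3b and Crnn reached the minimum level for testing only through papilloma, so their direction followed from that. Rptn, Lce3f, Tchh and Tchhl1 had FPKM of at least 1 in fewer than 3 vehicle epidermis libraries. They too could be tested only with papilloma libraries, so they lend these counts no support. The libraries of 18 members lay wholly higher in papilloma and those of 13 wholly lower, beside 33.8% and 40.7% of all genes. The median log2 difference was 0.51 over the members tested and -0.07 over all genes. Tests were limma on log2(FPKM + 1) with p-values adjusted over all genes by the Benjamini-Hochberg method, a scale that understates fold changes of low genes. The limit of 3 was chosen after the values were seen.

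Lce3 genes, which encode late cornified envelope proteins of stressed skin, stood far higher in papilloma. In the lists that follow, the 3 values of a group are FPKM of libraries 1, 2 and 3. Lce3c was at 6.89, 7.52 and 9.48 in vehicle epidermis, 26.7, 45.5 and 14.1 in CWO epidermis, 1916, 1744 and 2565 in vehicle papilloma and 2028, 1747 and 1979 in CWO papilloma. Lce3f was at 1.05, 0.983 and 2.35 in vehicle epidermis, 6.60, 13.1 and 4.06 in CWO epidermis, 1607, 1387 and 2202 in vehicle papilloma and 1801, 1389 and 1663 in CWO papilloma. Every papilloma library exceeded every epidermis library by more than an order of magnitude for both genes. Between vehicle groups the log2 difference was 7.85 ± 0.17 (SE, adjusted p = 2.20e-08) for Lce3c and 9.48 ± 0.23 (SE, adjusted p = 4.75e-08) for Lce3f. Lce3a was at 0 in each library in vehicle epidermis, 2.00, 2.17 and 0.663 in CWO epidermis, 1054, 937 and 1652 in vehicle papilloma and 1129, 829.6 and 1182 in CWO papilloma. It was thus listed at 0 without CWO in epidermis, and no fold is given. Lce3b was at 0.645, 0.582 and 0.233 in vehicle epidermis, 0.803, 3.77 and 0.800 in CWO epidermis, 1243, 1138 and 1767 in vehicle papilloma and 1220.3, 998 and 1387 in CWO papilloma. No library of one tissue came near the other for either gene. In annotated mouse transcripts 48.04% of the 50-base windows of Lce3f and 35.7% of those of Lce3c also occur in another gene, chiefly Lce3e for Lce3f and Lce3f for Lce3c, so reads could have been divided between copies and these single-gene values are uncertain.

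The 13 Lce1 genes moved in both directions, 5 higher and 6 lower in vehicle papilloma, with Lce1d and Lce1i not passing. Lce1m was at 3745, 4639.9 and 3943 in vehicle epidermis, 1993, 3276 and 3509 in CWO epidermis, 79.1, 100.1 and 74.3 in vehicle papilloma and 64.8, 57.0 and 47.96 in CWO papilloma. Its tissues did not overlap, and its log2 difference of -5.59 ± 0.15 (SE, adjusted p = 6.97e-08) was the lowest of the members tested. Lce1g was at 20.1, 27.4 and 24.7 in vehicle epidermis, 51.0, 76.2 and 39.9 in CWO epidermis, 269, 222 and 336 in vehicle papilloma and 318, 250.03 and 219 in CWO papilloma. Here the order was the opposite, with every papilloma library above every epidermis library, and the log2 difference was 3.45 ± 0.17 (SE, adjusted p = 1.19e-06). Neighbouring genes in the block differed in direction: Lce1a1, Lce1b, Lce1a2 and Lce1c, next to each other at one end, were lower by log2 differences from -0.97 to -1.52, and Lce1l was lower at -1.29. Lce1e, Lce1f, Lce1h and Lce1k were higher by 0.79 to 1.30. Levels of the 12 Lce1 genes other than Lce1m ran from 20.1 FPKM (Lce1g) to 1498 FPKM (Lce1a1) in vehicle epidermis. Between 9.12% and 27.1% of the 50-base windows of these 12 genes recur in another gene, while for Lce1m the share is 0.0%. Lce6a was at 53.0 to 54.1 FPKM in vehicle epidermis and 48.03 to 56.6 FPKM in vehicle papilloma and did not pass.

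**Figure D3:**
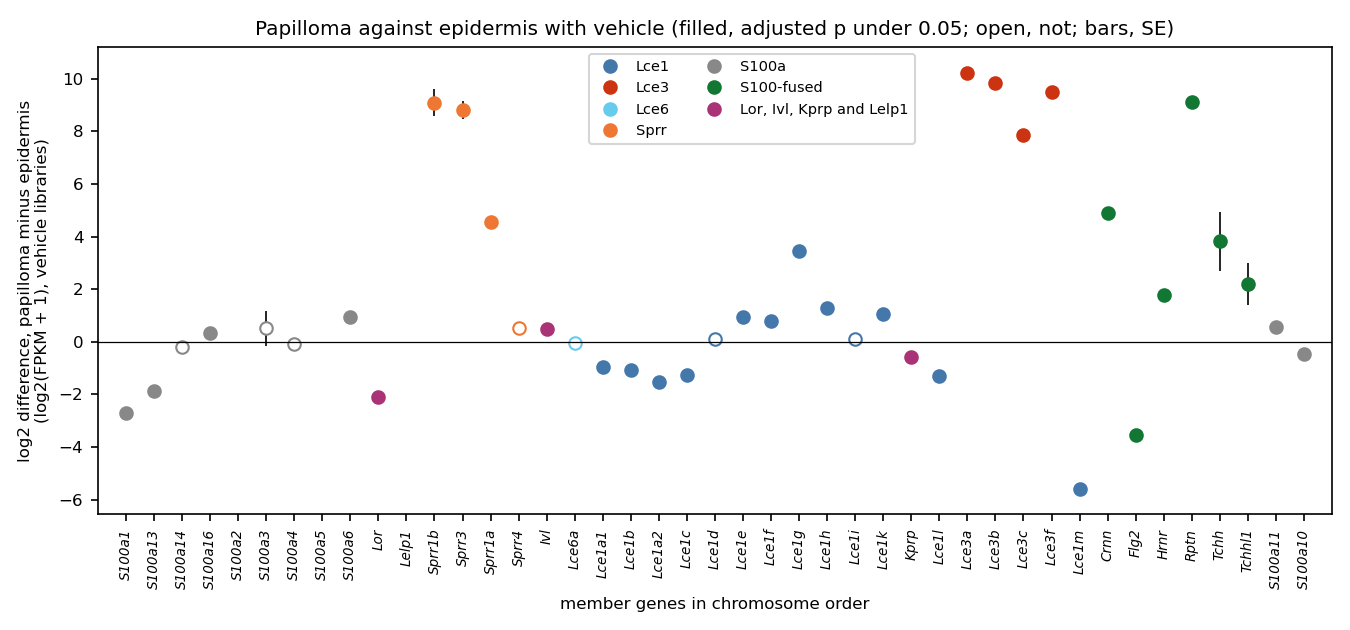
Points give the log2 difference of each of the 40 members tested between vehicle papilloma and vehicle epidermis, in chromosome order, with bars of 1 SE, filled where the adjusted p was under 0.05. Lce3c stands at 7.85 and Lce3f at 9.48, next to Lce1m at -5.59, and Sprr1b and Rptn lie above 9. Lce3a and Sprr3 are at 0 in vehicle epidermis, and the pseudocount sets where they are drawn.

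Sprr genes encode proline-rich crosslinking partners of loricrin. Sprr1b was at 4.39, 8.78 and 28.3 in vehicle epidermis, 96.5, 167 and 30.0 in CWO epidermis, 6537, 5628 and 6667 in vehicle papilloma and 6596, 6397 and 6503 in CWO papilloma. Sprr1a was at 261, 295 and 363 in vehicle epidermis, 961, 1483 and 471 in CWO epidermis, 7173, 6694 and 7579 in vehicle papilloma and 6522, 6292 and 8127 in CWO papilloma. For both genes papilloma libraries lay above all epidermis libraries, with log2 differences of 9.08 ± 0.51 (SE, adjusted p = 2.27e-06) and 4.55 ± 0.16 (SE, adjusted p = 2.52e-07). Sprr3, known from oral and oesophageal epithelium, was at 0 in each library in vehicle epidermis, 0 in each library in CWO epidermis, 239.8, 534 and 718 in vehicle papilloma and 85.7, 93.0 and 568 in CWO papilloma. It was listed at 0 in all 6 epidermis libraries and varied widely between the papilloma libraries, each a pool of 4 tumours. Sprr4 was at 48.6, 51.9 and 55.9 in vehicle epidermis, 104, 175 and 58.6 in CWO epidermis, 74.3, 109 and 50.9 in vehicle papilloma and 45.3, 56.0 and 73.2 in CWO papilloma. Its vehicle groups overlapped, and it did not pass, with a log2 difference of 0.51 ± 0.23 (SE, adjusted p = 0.0846). It passed in 1 of 6 fits that left out a library, that without papilloma vehicle library 3, its lowest vehicle papilloma value (adjusted p = 0.00577). Despite these FPKM, Sprr4 rested on few recovered fragments, 23 to 55 per library in vehicle epidermis and 40 to 87 in vehicle papilloma.

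Of the 6 S100-fused genes, 5 were higher in vehicle papilloma and Flg2 was lower. Rptn, the gene of repetin, was at 1.18, 0.830 and 1.48 in vehicle epidermis, 3.59, 6.14 and 2.85 in CWO epidermis, 931, 1064 and 1662 in vehicle papilloma and 1633, 859 and 1042 in CWO papilloma. The tissues did not overlap, and the mean FPKM of vehicle papilloma was 1051 times that of vehicle epidermis. The log2 difference was 9.11 ± 0.21 (SE, adjusted p = 3.93e-08). Flg2, which encodes filaggrin-2 of the granular layer, was at 216, 255 and 277 in vehicle epidermis, 166, 201 and 346 in CWO epidermis, 17.7, 24.4 and 19.1 in vehicle papilloma and 16.6, 13.3 and 10.8 in CWO papilloma. Every papilloma library was below every epidermis library, with a log2 difference of -3.55 ± 0.14 (SE, adjusted p = 4.84e-07). Hrnr, the gene of hornerin, was at 51.5, 48.7 and 53.9 in vehicle epidermis, 54.0, 87.0 and 69.3 in CWO epidermis, 126, 188 and 243 in vehicle papilloma and 222, 121 and 138 in CWO papilloma. It rose by 1.79 ± 0.21 (SE, adjusted p = 1.09e-04) without overlap, so Flg2 and Hrnr, which follow each other among the members 98.4 kb apart, differed in opposite directions. Crnn, which encodes cornulin, was at 0, 0.0640 and 0.346 in vehicle epidermis, 0.278, 1.09 and 0 in CWO epidermis, 31.5, 31.7 and 33.9 in vehicle papilloma and 24.4, 27.3 and 22.6 in CWO papilloma. It was near or at 0 in epidermis and at 22.6 FPKM or more in all tumour libraries.

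Trichohyalin is a protein of the hair follicle's inner root sheath, and its gene Tchh varied widely within groups. Tchh was at 0.941, 0.517 and 29.7 in vehicle epidermis, 1.34, 28.3 and 0.740 in CWO epidermis, 20.2, 126 and 92.8 in vehicle papilloma and 16.2, 58.8 and 84.0 in CWO papilloma. Its vehicle groups overlapped although the log2 difference of 3.82 ± 1.13 (SE, adjusted p = 0.0157) passed. Tchhl1, its neighbour, passed with 2.21 ± 0.80 (SE, adjusted p = 0.0353) and likewise overlapped. In each of the 4 groups the library order of Tchh, Tchhl1 and S100a3 was that of the summed FPKM of hair follicle markers. Those sums were 39.9, 22.6 and 334 in vehicle epidermis and 67.6, 557 and 22.0 in CWO epidermis. In papilloma they were 124, 714 and 508 with vehicle and 86.0, 397 and 503 with CWO. The part of follicle content in these results was not tested. Tchh lost its call without epidermis vehicle library 1 or 2 or papilloma vehicle library 3, with adjusted p up to 0.0589. Tchhl1 lost its call without epidermis vehicle library 1 or 2 or papilloma vehicle library 2 or 3, with adjusted p up to 0.120. With epidermis vehicle libraries 1 and 2 both left out the log2 differences were 1.04 (Tchh) and 0.25 (Tchhl1).

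Lor, the gene of loricrin, was at 5834, 8202 and 8289 in vehicle epidermis, 6331, 6529 and 7509 in CWO epidermis, 1364, 1713 and 2159 in vehicle papilloma and 1934, 1533 and 1302 in CWO papilloma. All papilloma libraries lay below all epidermis libraries, and the log2 difference was -2.10 ± 0.23 (SE, adjusted p = 7.57e-05). Ivl, the gene of involucrin, was at 139, 144 and 189 in vehicle epidermis, 139.6, 207 and 163 in CWO epidermis, 245, 237 and 180.2 in vehicle papilloma and 259, 221 and 197 in CWO papilloma. Its groups overlapped, and it rose by 0.49 ± 0.16 (SE, adjusted p = 0.0245). Kprp, a keratinocyte proline-rich protein gene, fell by 0.585 on the log2 scale (SE 0.17, adjusted p = 0.0136) without overlap. The Ivl call was lost without either of epidermis vehicle libraries 1 and 2 or papilloma vehicle libraries 1 and 2 (adjusted p up to 0.0854). The Kprp call was lost without papilloma vehicle library 1 or 2 (up to 0.0518).

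Among the S100a genes 3 rose, 3 fell and 3 did not pass between the vehicle groups. S100a1 was at 114, 129 and 101 in vehicle epidermis, 126, 129 and 109.8 in CWO epidermis, 14.9, 21.7 and 14.7 in vehicle papilloma and 11.7, 13.2 and 15.7 in CWO papilloma. S100a13 was at 51.2, 55.0 and 54.9 in vehicle epidermis, 64.5, 46.5 and 57.4 in CWO epidermis, 13.3, 14.7 and 14.1 in vehicle papilloma and 16.6, 16.4 and 12.6 in CWO papilloma. Both were lower in every papilloma library, with log2 differences of -2.69 ± 0.16 (SE, adjusted p = 3.01e-06) and -1.86 ± 0.09 (SE, adjusted p = 1.00e-06). S100a6, the gene of calcyclin, was at 745, 996 and 766 in vehicle epidermis, 1277, 1367 and 1358 in CWO epidermis, 1757, 1504 and 1475 in vehicle papilloma and 1385, 1739 and 1809.8 in CWO papilloma. It rose by 0.93 ± 0.15 (SE, adjusted p = 8.04e-04), and vehicle papilloma lay wholly above vehicle epidermis. S100a10, a partner of annexin A2, was at 392, 418 and 502 in vehicle epidermis, 616, 499.99 and 511 in CWO epidermis, 367, 303 and 292 in vehicle papilloma and 310.4, 331 and 352 in CWO papilloma. S100a11 was at 569, 675 and 682 in vehicle epidermis, 794, 789 and 669 in CWO epidermis, 1012, 906 and 899.8 in vehicle papilloma and 879, 908 and 1005 in CWO papilloma. In vehicle papilloma S100a10 was lower and S100a11 higher than in vehicle epidermis, with log2 differences of -0.45 ± 0.14 (SE, adjusted p = 0.0177) and 0.55 ± 0.12 (SE, adjusted p = 0.00382). S100a16 was at 469, 547 and 592 in vehicle epidermis, 799, 685 and 790.0 in CWO epidermis, 707, 629 and 662 in vehicle papilloma and 617, 708 and 616 in CWO papilloma. It rose by 0.32 ± 0.12 (SE, adjusted p = 0.0456), a call that held in 1 of 6 fits that left out a library, that without epidermis vehicle library 3 (adjusted p 0.0305 to 0.145). The S100a10 call was lost without epidermis vehicle library 3 or papilloma vehicle library 2 or 3, with adjusted p up to 0.0676. S100a14 did not pass, nor did S100a4 and S100a3. For S100a11 41.1% and for S100a4 47.4% of 50-base windows recur in another annotated gene.

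Between CWO papilloma and CWO epidermis, which differ also in 6 weeks against 24 h of oil, 30 of 40 members passed, 17 higher and 13 lower, beside 68.8% of 12696 genes (29.1% higher, 39.7% lower, and 71.6% at an unadjusted p under 0.05). Libraries did not overlap for 15 members higher in papilloma and 13 lower, beside 31.4% and 42.6% of all genes. These groups share no library with the vehicle comparison. Log2 differences of at least 3 were reached upward by 9 members (1.48% of all genes) and downward by 3 (1.84%), namely Lce1m, Flg2 and S100a1. Sprr3, listed at 0 in CWO epidermis, reached the level for testing only through papilloma, so its place among the 9 and the 17 was fixed. Lce3a, Lce3b, Crnn and Tchh, also among the 9, had FPKM of at least 1 in fewer than 3 CWO epidermis libraries. They too could be tested only with papilloma libraries, so they lend these counts no support. The same held for Tchhl1, which did not pass. Lce3b differed by 8.90 ± 0.35 (SE, adjusted p = 4.15e-07), Lce3f by 7.63 ± 0.32 (SE, adjusted p = 4.96e-07), Rptn by 7.82 ± 0.28 (SE, adjusted p = 2.81e-07) and Sprr1b by 6.35 ± 0.51 (SE, adjusted p = 1.23e-05). Lce1m differed by -5.64 ± 0.22 (SE, adjusted p = 3.85e-07), Flg2 by -3.98 ± 0.26 (SE, adjusted p = 4.47e-06), S100a1 by -3.08 ± 0.13 (SE, adjusted p = 4.56e-07) and Lor by -2.11 ± 0.18 (SE, adjusted p = 1.62e-05). S100a14 and S100a4 passed as lower here, at -0.76 ± 0.12 (SE, adjusted p = 4.63e-04) and -0.39 ± 0.11 (SE, adjusted p = 0.0154). The S100a4 call was lost without papilloma CWO library 2 or 3 (adjusted p up to 0.0630) and with median-ratio scaling (adjusted p = 0.0997). S100a11 (0.31) lost its call without any of the 6 libraries (adjusted p 0.0525 to 0.147). Ivl (0.42) and Lce1f (0.65) lost theirs without epidermis CWO library 1 or 3 or papilloma CWO library 1 or 2, with adjusted p up to 0.167 and 0.124. Tchh (3.17) lost its call without epidermis CWO library 1 or 3 or papilloma CWO library 2 or 3 (up to 0.0896).

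**Figure D4:**
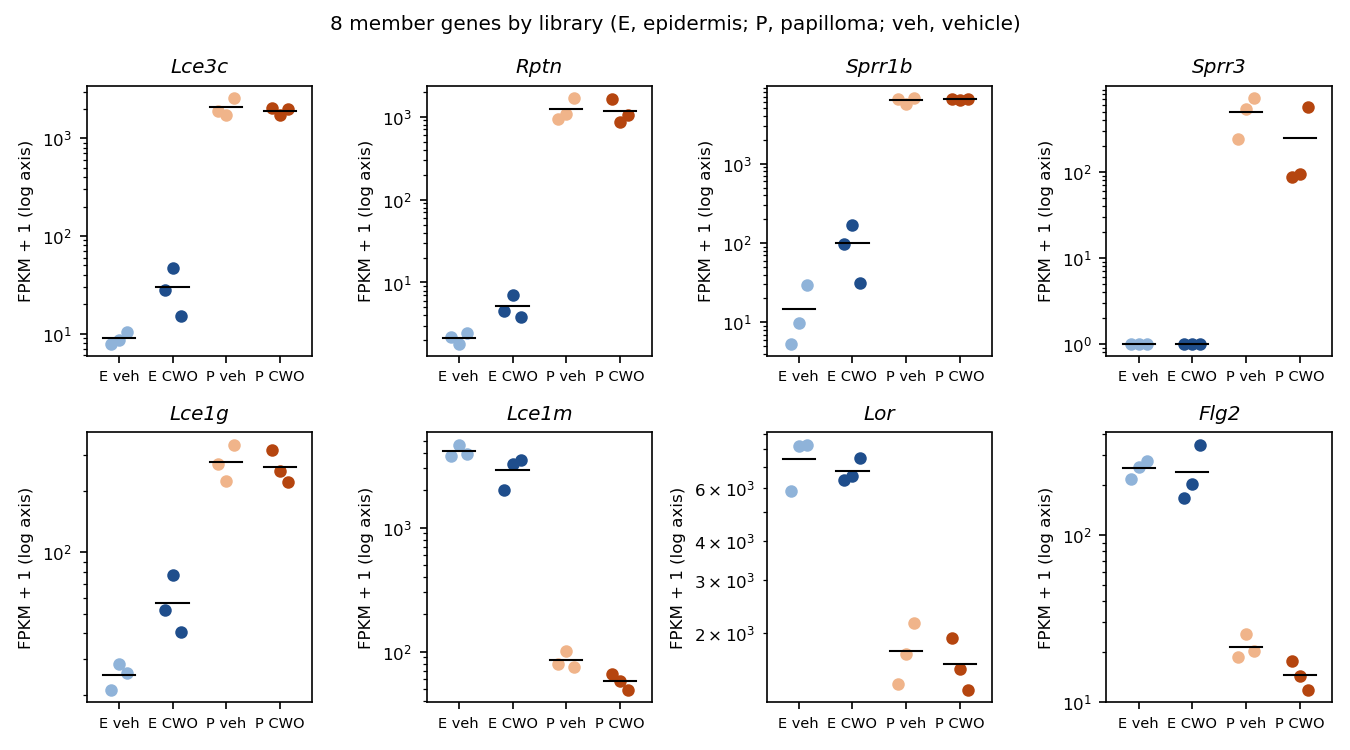
Points give FPKM + 1 (log axis) of 8 members in each library by group, and lines give group means. Lce3c, Rptn, Sprr1b, Sprr3 and Lce1g are higher in every papilloma library than in any epidermis library, and Lce1m, Lor and Flg2 are lower.

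The next comparison set CWO against vehicle in epidermis 24 h after treatment. Of 35 members tested, 3 rose (S100a4, Rptn and Lce1g) and none fell at an adjusted p under 0.05, beside 2.01% of 12294 genes (1.83% rose and 0.179% fell). The vehicle epidermis libraries are the same as in the first comparison. At an unadjusted p under 0.05 there were 14 members, 13 higher and Lce1l lower, beside 14.7% of all genes. The 13 were also those whose CWO libraries all exceeded the vehicle libraries (12.1% of all genes did so). Rptn and Lce3f had FPKM of at least 1 in fewer than 3 vehicle libraries. They reached the level for testing only with CWO libraries, so they lend these counts no support. Lce1l and Lce1m were lower in every CWO library, beside 6.67% of all genes. The structural genes of undisturbed epidermis, Lor, Ivl, Flg2, Kprp and 10 of the 13 Lce1 genes, were not among the 14. The median log2 change was 0.17 over the members tested and 0.02 over all genes.

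S100a4, whose product binds cytoskeletal proteins, was at 316, 293 and 342 in vehicle epidermis, 479, 471 and 493 in CWO epidermis, 326, 288 and 271 in vehicle papilloma and 420.3, 352 and 335 in CWO papilloma. In epidermis the groups did not overlap, and the rise was 0.60 ± 0.11 (SE, adjusted p = 0.0335). Rptn went from 0.830 to 1.48 FPKM with vehicle to 2.85 to 6.14 FPKM with CWO, a rise of 1.23 ± 0.24 (SE, adjusted p = 0.0429) at levels near the minimum for testing. Lce1g went from 20.1 to 27.4 FPKM to 39.9 to 76.2 FPKM, a rise of 1.14 ± 0.22 (SE, adjusted p = 0.0460). All 3 calls were close to the threshold. Over the 6 fits that left out a library, adjusted p reached 0.153 for S100a4, 0.148 for Rptn and 0.155 for Lce1g. S100a4 kept its call only without vehicle library 3, and Rptn and Lce1g kept theirs without vehicle library 3 or CWO library 3. Other settings also ended these calls. Lce1g had an adjusted p of 0.0579 with median-ratio scaling, 0.0632 with quantile normalization, 0.0561 without the intensity trend and 0.0680 with limma-voom. S100a4 had 0.135 with quantile normalization, and Rptn had 0.0568 with a pseudocount of 3 and 0.0593 with limma-voom. With no filter on low genes the adjusted p was 0.0775 for S100a4, 0.135 for Rptn and 0.143 for Lce1g. The number of members called was 0 without vehicle library 1, CWO library 1 or CWO library 2, 1 without vehicle library 2, and 7 without vehicle library 3 or CWO library 3.

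Several members showed larger differences that did not pass. Sprr1b had a log2 fold change of 2.79 ± 0.71 (SE, adjusted p = 0.105), Sprr1a of 1.53 ± 0.36 (SE, adjusted p = 0.0844) and Sprr4 of 0.96 ± 0.33 (SE, adjusted p = 0.219). CWO library 3 was the lowest CWO library for all 3 genes, and for Sprr1b it stood at 30.01 FPKM against 28.3 FPKM in the highest vehicle library. Lce3f had a log2 fold change of 1.77 ± 0.36 (SE, adjusted p = 0.0527) and Lce3c of 1.60 ± 0.35 (SE, adjusted p = 0.0659). Without CWO library 3, Sprr1a, Sprr1b, Sprr4, Lce3c and Lce3f each passed, with adjusted p of 0.00843, 0.0400, 0.0244, 0.00912 and 0.0236. That library was the lowest CWO library for all of them, so leaving it out raised their changes by construction. In that fit 328 of 12171 genes passed. Without CWO library 1 or CWO library 2 no member passed. Lce3a, listed at 0 with vehicle, and Lce3b were below the level for testing, and an exact permutation test gave p = 0.1 for each, two-sided, the smallest that 3 against 3 allows. In 10 of the 13 members whose CWO libraries were all higher, CWO library 2 was the highest, and in 7 of them CWO library 3 was the lowest. Among the vehicle libraries, library 3 was the highest in 10 of the 13. CWO library 2 and vehicle library 3 also had the highest hair follicle marker sums of their groups, 557 and 334 FPKM. The part of follicle content in this order was not tested. S100a14 was at 897, 921 and 1031 in vehicle epidermis, 1272, 1299 and 1492 in CWO epidermis, 876, 842 and 795 in vehicle papilloma and 775, 797 and 822 in CWO papilloma. Every CWO epidermis library exceeded the vehicle libraries for this gene, but the log2 fold change of 0.51 ± 0.13 (SE, adjusted p = 0.112) did not pass, nor did that of S100a16, 0.50 ± 0.14 (SE, adjusted p = 0.121). Lce1k and Hrnr, the other two of the 13, were at 0.57 ± 0.18 (SE, adjusted p = 0.178) and 0.42 ± 0.16 (SE, adjusted p = 0.293). S100a6 had 0.69 ± 0.15 (SE, adjusted p = 0.0639) and passed without vehicle library 2 (adjusted p = 0.0409). Vehicle library 2 held its highest vehicle value, so leaving it out raised the change by construction. The authors' deposited table of 176 genes for epidermis lists a single member, S100a6, with a log2 fold change of 0.65 and an adjusted p of 0.00115.

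Log2 fold changes of Lor and Flg2 were smaller than their standard errors in epidermis, at -0.12 ± 0.21 (SE, adjusted p = 0.875) and -0.13 ± 0.25 (SE, adjusted p = 0.881), and Ivl was at 0.11 ± 0.18 (SE, adjusted p = 0.864). Lce1m was lower in all CWO libraries, but its log2 fold change of -0.53 ± 0.24 (SE, adjusted p = 0.359) did not pass, and neither did that of Lce1l, -0.39 ± 0.16 (SE, adjusted p = 0.314). The summed muscle markers given above were highest in vehicle libraries 1 and 2, although 0 of the 16 markers passed in this comparison. With the mean log2 level of these markers as a covariate no member passed, and the log2 changes were 0.48 for S100a4, 0.90 for Rptn and 1.06 for Lce1g. With both vehicle libraries 1 and 2 left out no member passed, and they were 0.49, 1.02 and 1.09. The log2 fold change of Sprr1b, 2.79 with all libraries, was 1.43 with the covariate and 1.45 without those libraries, and that of Lce3f was 1.16 and 1.28. These fits have fewer degrees of freedom, and 13 and 12 genes in all passed. Of the 10 Sprr2 genes, 7 could be tested and 6 rose, with a log2 change of 3.44 ± 0.31 (SE, adjusted p = 0.00301) for Sprr2a2.

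**Figure D5:**
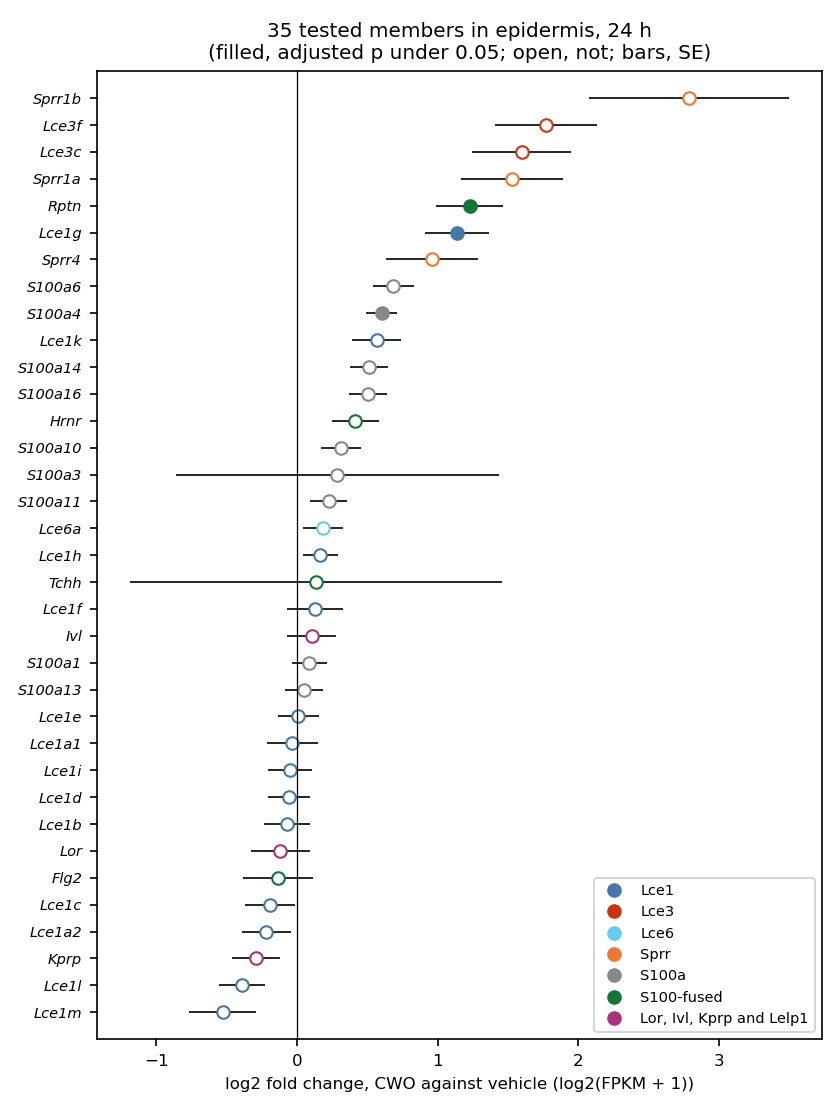
Points give the log2 fold change of CWO against vehicle in epidermis for the 35 members tested, with bars of 1 SE. Sprr1b, Lce3f, Lce3c and Sprr1a lie farthest right but did not pass, and S100a3 and Tchh have the widest bars.

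In papilloma no member of 41 tested passed after 6 weeks of CWO, and neither did any of 12149 genes (0.0%). At an unadjusted p under 0.05 there were 4 members, beside 306 genes in all (2.52%). They were S100a4, with a log2 fold change of 0.32 ± 0.11 (SE, adjusted p = 1.00), Crnn with -0.38 ± 0.09 (SE, adjusted p = 1.00), Lce1m with -0.57 ± 0.14 (SE, adjusted p = 1.00) and Flg2 with -0.56 ± 0.17 (SE, adjusted p = 1.00). For these 4 the CWO and vehicle papilloma libraries did not overlap, S100a4 being higher with CWO and the others lower (3.02% and 3.58% of all genes did so upward and downward). A count model, limma-voom on recovered fragments, also called no member and no gene. Sprr1b and Sprr1a differed by 0.05 ± 0.13 and -0.04 ± 0.15 on the log2 scale (SE). The Lce3 genes lay between -0.19 and -0.08. Sprr3 had the lowest value, -1.44 ± 0.73, with 2 CWO libraries at 85.7 and 93.0 FPKM and the third within the vehicle range. The authors' deposited table for papilloma lists all 43 members, the lowest adjusted p among them is 1, and 40 of the 41 tested here have the same direction in it.

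The effects of CWO in the tissues were compared by their difference, papilloma minus epidermis, in a fit of all 12 libraries. No member of 41 passed, beside 0.743% of 13191 genes (0.0303% with a more positive and 0.713% with a more negative effect in papilloma). At an unadjusted p under 0.05 there were 13 members, all with a more negative effect in papilloma, beside 9.91% of all genes in both directions together. Of the 13, Lce3a and Crnn were below the level for testing in epidermis and entered this fit through papilloma, so they lend the count no support. Rptn and Lce3f reached that level in epidermis only with CWO libraries and lend it none either. Apart from Lce3a and Crnn, all of the 13 were among the members higher in every CWO epidermis library. The same epidermis libraries enter both results, so the second is not independent of the first. Lce3a had -1.51 ± 0.35 (SE, adjusted p = 0.0846), a size set by the pseudocount since vehicle epidermis is at 0: it was -4.13 (adjusted p = 0.00283) with a pseudocount of 0.1, -0.79 (adjusted p = 0.347) with 3 and -4.07 (adjusted p = 0.343) with limma-voom. Lce3f had -1.85 ± 0.45 (SE, adjusted p = 0.0945), S100a14 -0.58 ± 0.14 (SE, adjusted p = 0.102) and Lce3c -1.69 ± 0.43 (SE, adjusted p = 0.115). Sprr1b had -2.73 ± 0.84 (SE, adjusted p = 0.214) and Lce1g -1.20 ± 0.32 (SE, adjusted p = 0.134). Without epidermis CWO library 3, 6 members passed (Lce1g, Lce3a, Lce3c, Lce3f, Sprr1a and Sprr1b), beside 232 of 13142 genes. That library was the lowest CWO epidermis library for each of the 6. Without epidermis vehicle library 3, 2 members passed (Lce3f and Sprr1b), beside 328 of 13121 genes. That library was the highest vehicle epidermis library for both genes, so leaving it out enlarged their differences by construction. Of the 10 Sprr2 genes 4 passed, all negative.

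Genes that work with the complex were read from a list of 25 crosslinking enzymes and envelope partners. None of 23 tested passed with CWO in epidermis and none of 24 in papilloma, and the smallest p in epidermis belonged to Cst6, which encodes the protease inhibitor cystatin E/M (0.63 ± 0.14, SE, adjusted p = 0.0651). Between vehicle tissues 15 of 25 were higher in papilloma and 6 lower, beside 31.8% and 38.3% of all genes, with a median log2 difference of 0.63 beside -0.07. Tgm3, the transglutaminase of follicle and upper epidermis, was at 3.45, 2.44 and 5.37 FPKM in vehicle epidermis and 413, 605 and 738 FPKM in vehicle papilloma, a difference of 6.95 ± 0.26 (adjusted p = 3.76e-07). Casp14, the protease of filaggrin breakdown, differed by 3.32 ± 0.12 (adjusted p = 2.94e-07), and Csta, a cystatin of the envelope, by 2.23 ± 0.09 (adjusted p = 4.69e-07). Padi1, an arginine deiminase, had a mean of 0.0806 FPKM in vehicle epidermis and 8.24 FPKM in vehicle papilloma; it reached the level for testing only through papilloma, which fixed its direction. With CWO in both tissues 13 of 25 were higher and 5 lower, beside 29.1% and 39.7% of all genes. Cst6 was among the lower (-2.04 ± 0.13, adjusted p = 4.31e-06).

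Of 25 transcriptional regulators of keratinocyte differentiation, none passed with CWO in either tissue. In epidermis Hopx had the smallest p (0.49 ± 0.11, SE, adjusted p = 0.0696). Between vehicle tissues 9 were higher in papilloma, 7 lower and 9 did not pass, beside 31.8% higher and 38.3% lower over all genes. The median log2 difference was 0.09 beside -0.07. Fosl1, an AP-1 subunit, was at 1.504, 0.529 and 1.51 FPKM in vehicle epidermis and 30.4, 22.9 and 30.02 FPKM in vehicle papilloma (3.75 ± 0.21, adjusted p = 2.43e-06). With FPKM of at least 1 in fewer than 3 vehicle epidermis libraries, Fosl1 could be tested only with papilloma libraries. It therefore lends the count of 9 higher no support. Nfe2l2, the gene of the antioxidant response factor NRF2, was higher by 2.80 ± 0.12 (adjusted p = 5.78e-07), and Ppard, a lipid-activated receptor, by 2.19 ± 0.10 (adjusted p = 7.80e-07). Gata3, a factor of epidermal barrier formation, was at 163, 166 and 193 FPKM in vehicle epidermis and 16.5, 25.7 and 17.3 FPKM in vehicle papilloma, a difference of -3.09 ± 0.16 (adjusted p = 1.72e-06).

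S100a3, expressed in the hair cuticle, was at 25.8, 11.8 and 82.6 in vehicle epidermis, 31.0, 226 and 6.15 in CWO epidermis, 20.6, 69.7 and 53.3 in vehicle papilloma and 13.2, 55.2 and 59.7 in CWO papilloma, following the follicle markers as described. The other 3 members were low. S100a2 was at 0 to 2.42 FPKM over the 12 libraries. S100a5 was at 0 in 11 libraries and 0.253 FPKM in CWO epidermis library 3. Lelp1 never exceeded 0.180 FPKM. S100a5 and Lelp1 were below the level for testing in the treatment and tissue comparisons, where exact permutation tests gave p-values of 0.4 to 1. At this depth, 11.1 to 24.6 M fragments per library, such levels rest on few fragments.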

How the data were processed

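PolyA RNA was sequenced by the submitters in 12 libraries. Per the submitters' processing notes, bcl2fastq 1.8.4, TopHat2 2.0.4, Cufflinks 2.0.2, DESeq and mm9 were used. Per the file headers, the deposited per-library tables give FPKM with an interval and a status for each gene. The authors' comparison tables hold, per the file headers, mean scaled counts (a signal), the ratio of the means as a fold, that fold on a log2 scale, and p-values with their adjusted form.

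Values of status other than OK were left out, rows of 248 repeated symbols were summed, and 737 short non-coding genes were dropped. A trended limma fit (3.58.1, run under R 4.3.3) was made on log2(FPKM + 1) of genes with FPKM of at least 1 in at least 3 fitted libraries, two-sided, adjusted by Benjamini-Hochberg at 0.05. Members below that level had an exact permutation test. The fit was also run on simulated data, drawn around each gene's mean over the 12 libraries. That setting does not cover genes near 0 in a group, and no result here rests on it. Each treatment and tissue comparison used its own 6 libraries and the difference of effects all 12. FPKM were not rescaled. Fragment numbers, 11.1 to 24.6 M per library, were recovered from FPKM and its interval taken as 2 SD, and 67.9 to 69.2% of values under 500 fragments were whole within 0.02.

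Members and lists were chosen with earlier results of these data known. Values per library are given for members called with CWO, a panel of structural and S100a genes, the 5 largest called tissue differences in each direction without overlap, and the 3 smallest p-values per treatment comparison; of the lists, up to 4 genes with the smallest p are named. Gene positions are 1-based on mm9, and RefSeq promoter windows are on GRCm38.p6. Alternatives covered pseudocounts, filters, scaling, limma settings, limma-voom, a replicate block, left-out libraries, all libraries in 1 fit and a muscle covariate.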

Additional observations from a re-analysis of the deposited data

How the results depend on the processing

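In epidermis the count of 3 members called with CWO was 0 with no filter, 1 with limma-voom, 11 with all 12 libraries in a single fit, 0 with the muscle covariate and 0 with both muscle-rich vehicle libraries left out, where the lone library is assumed to vary like the other group. It ranged from 0 to 7 with a library left out. The count for the difference of effects, 0, was 1 (Lce3a) with a pseudocount of 0.1 and ranged from 0 to 6 with a library left out. Over all genes the epidermis count of 247 was 43 with no filter, 656 with all libraries, 13 with the covariate, 12 without the muscle-rich libraries, and 64 to 681 with a library left out; that for the difference of effects, 98, was 63 with no filter, 57 with the block and 34 to 328 with a library left out. The other counts of members stayed within 1.5 times. With the replicate number as a block the epidermis count was 0 members and 54 genes, papilloma 0 members and 4 genes, and the tissue counts 33 and 28. Same-numbered deviations correlated at 0.02, -0.44 and -0.36 in epidermis and 0.28, 0.14 and 0.02 in papilloma. Different-numbered libraries were not compared in this way, so these values cannot decide whether the numbers pair the samples. Small fold changes turned sign in members that had not passed. In epidermis these were Flg2 (0.087 without CWO library 1), Ivl (-0.0247 with quantile normalization, -0.047 without CWO library 2, -0.22 with the muscle covariate, -0.17 without the muscle-rich libraries, -0.047 to 0.24 over single libraries), Tchh (-0.29 with limma-voom, -0.47 and -0.65 without vehicle library 1 or 2, up to 0.88 without others, -3.06 with the covariate, -2.64 without both) and S100a3 (-0.018, -0.34, -1.02 without vehicle or CWO library 2, -1.70 and -1.16 likewise). Between vehicle tissues these were S100a3 (-0.12 without epidermis library 2, up to 1.24 without others, -0.94 without both muscle-rich libraries), S100a4 (0.0087 with quantile normalization), Lce6a (0.051, 0.10 and 0.048 with median-ratio, quantile and voom scaling, 0.016 without papilloma library 2, down to -0.10), and Lce1d and Lce1i (-0.069 and -0.039 without papilloma library 3, up to 0.22 and 0.19 without others). Between CWO tissues S100a3 turned to 0.078, 0.15 and 0.073 with those scalings, 1.27 without epidermis library 2 and 0.65 without papilloma library 1, and was -1.23 at the lowest. The cause was not tested. Median-ratio scaling moved the median of all genes between CWO tissues from -0.12 to -0.01. With a papilloma library left out, members with no epidermis library at the minimum were not tested.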
